A study of Mus musculus with 9 samples.

Results

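Plasma cell identity was read from 7 genes, Sdc1, Prdm1, Xbp1, Irf4, Jchain, Mzb1 and Slamf7, chosen by their symbols. All 7 were found among the 46517 genes of the deposited table, and all 7 passed the filter on low values in both comparisons below. The 9 libraries come from C57BL/6 mice older than 18 months: 2 lymph nodes of plckGAPDH mice (animals 455 and 508), 4 spleens of plckGAPDH mice (animals 343, 508 and 547, and a spleen whose column gives no animal number, called the unnumbered spleen) and 3 spleens of wild-type mice (numbers 1, 4 and 5). In the plckGAPDH line a Gapdh transgene is driven from the Lck promoter, which is active in T lineage cells, and the labels describe these mice as developing tumours. Animal 508 gave both a spleen and a lymph node, and it is not known if the unnumbered spleen is from an animal of its own; a p-value here speaks of the spread among these libraries, which may be technical. The extraction protocol names splenocytes for all samples, while 2 are labelled as lymph nodes.

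Plasma cells are the antibody-secreting end stage of the B cell lineage. Irf4 and Prdm1 (which encodes Blimp-1) are the transcription factors that switch off the B cell programme and turn on secretion, and Xbp1, a factor of the unfolded protein response, enlarges the endoplasmic reticulum that folds antibody. Jchain encodes the small chain that joins IgM and IgA into polymers, Mzb1 encodes an endoplasmic reticulum protein that helps heavy chains fold, and Sdc1 (CD138) and Slamf7 (CD319) are surface proteins used to sort plasma cells. None of these genes is confined to plasma cells: Prdm1 and Irf4 are also active in effector and regulatory T cells, Slamf7 in natural killer cells and macrophages, Sdc1 in epithelium, and Mzb1 and Jchain in some other B cells and in plasmacytoid dendritic cells.

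RNA was measured as FPKM, fragments scaled by the length of the gene and by the counted fragments of the library, so levels can be set side by side between genes, while between libraries very abundant RNA in a library lowers all its other genes. Estimated depth was 23900000 to 34700000 fragments per library. Ptprc, the common antigen of white blood cells, was at 59.3 to 141 FPKM in the lymph nodes, 103 to 424 FPKM in plckGAPDH spleens and 333 to 418 FPKM in wild-type spleens. Gapdh, the gene of the transgene, was at 312 and 554 FPKM in the lymph nodes, 430 to 894 FPKM in plckGAPDH spleens and 299 to 348 FPKM in wild-type spleens. The wild-type spleens stood apart from each other: beta-globin Hbb-bs was at 33216 FPKM in spleen 5, 28.1 FPKM in spleen 1 and 0.17 FPKM in spleen 4, and the neutrophil gene S100a8 was at 1.37 FPKM in spleen 4 against 1162 FPKM in spleen 1. In a whole-tissue sample, fewer cells of a type and less RNA per cell cannot be told apart.

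The 7 genes stood at very different levels in the plckGAPDH spleens. Spleen 508 held the highest value of all 9 libraries for 6 of the genes and lay above every wild-type spleen for all 7, and spleen 547 lay above every wild-type spleen for 6, with Jchain below. Spleen 343 lay below every wild-type spleen for 6 of the 7 genes, Prdm1 being the exception, and the unnumbered spleen lay above for Prdm1 and Xbp1, below for Jchain and within the wild-type range for the other 4. Both lymph nodes lay above every wild-type spleen for all 7 genes. There is no wild-type lymph node, so organ and genotype cannot be told apart when nodes are set against wild-type spleens. Lymph node 508 and spleen 508 are also from the same animal. Of the 12607 genes tested between the spleens, the share above every wild-type spleen was 14.1% in spleen 508, 45.8% in spleen 547, 16.4% in spleen 343, 33.4% in the unnumbered spleen, 11.3% in lymph node 455 and 7.91% in lymph node 508. The share below every wild-type spleen was 47% in spleen 508, 18.3% in spleen 547, 21.3% in spleen 343, 10.5% in the unnumbered spleen, 48.9% in lymph node 455 and 67.2% in lymph node 508.

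**Figure D1:**
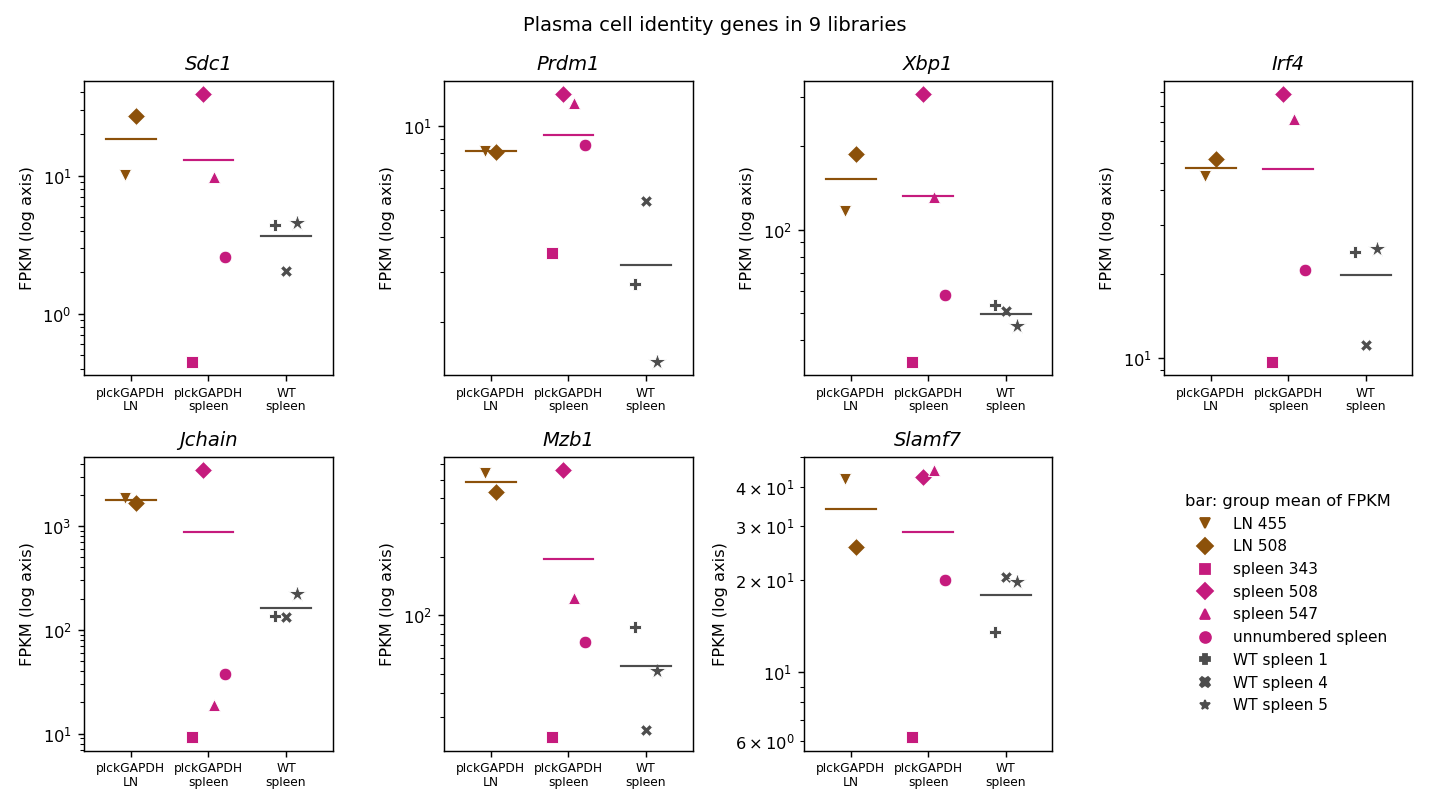
FPKM of each of the 7 genes in the 9 libraries on a log axis, with a point per library and a bar at the group mean. Spleen 508 lies highest among the plckGAPDH spleens for all genes except Slamf7, where spleen 547 is at 45.4 FPKM and spleen 508 at 43.2 FPKM; spleen 343 lies lowest for all 7.

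Between the groups of spleens, 0 of the 7 genes was called. Spleens were compared with limma on log2(FPKM + 1), a scale that understates changes of low genes, and a gene was called when its false discovery rate (FDR, by Benjamini and Hochberg) was under 0.05. Of all genes tested, 1.44% were called, 0.206% as higher and 1.23% as lower in plckGAPDH spleens. At an unadjusted p under 0.05, 1 of the 7 genes (Prdm1) passed, against 8.85% of all genes tested. The plckGAPDH and wild-type values overlapped for each of the 7, whereas 7.27% of all genes did not overlap (3.39% higher and 3.88% lower). Of the fold changes, 6 were positive and 1 negative, with a median of 0.82 on the log2 scale against 0.02 for all genes tested. Without spleen 508 the median of the 7 was 0.29, against 0.15 for all genes, and without spleen 343 it was 1.39, against 0.047 for all genes.

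**Figure D2:**
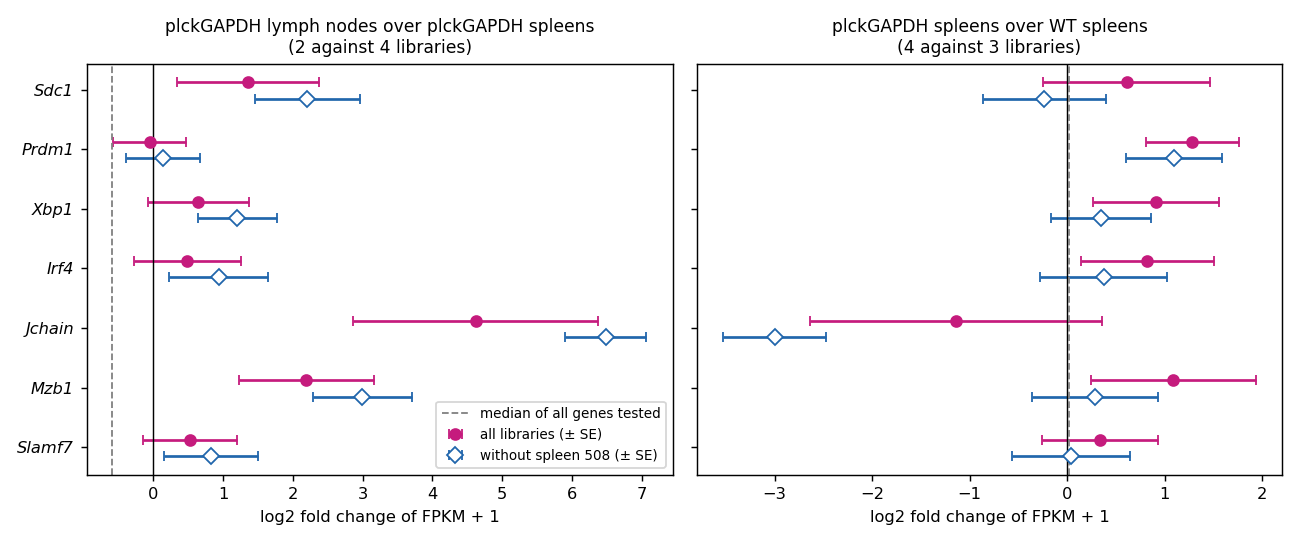
Log2 fold change of each gene on the FPKM + 1 scale with its SE, for lymph nodes over spleens of plckGAPDH mice (left) and plckGAPDH over wild-type spleens (right), with all libraries and without plckGAPDH spleen 508. Jchain is the gene that moves most when spleen 508 is left out, to 6.48 on the left and -3.0 on the right; dashed lines mark the median of all genes tested with all libraries, -0.59 and 0.02.

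Of the regulators, Prdm1 stood above the wild-type range in 3 of the 4 plckGAPDH spleens and Irf4 in 2. Prdm1 (chromosome 10, 44437177 to 44528501, minus strand, mm10) was at 13 FPKM in spleen 508, 12.2 FPKM in spleen 547, 8.59 FPKM in the unnumbered spleen and 3.53 FPKM in spleen 343, against 2.72, 5.41 and 1.44 FPKM in wild-type spleens 1, 4 and 5. The 3 highest plckGAPDH spleens lay above every wild-type spleen, and spleen 343 lay between wild-type spleens 1 and 4. The mean was 9.32 ± 4.31 FPKM in plckGAPDH spleens (SD, n = 4) and 3.19 ± 2.03 FPKM in wild-type spleens (SD, n = 3), and its log2 fold change was 1.29 (SE 0.48, limma FDR 0.385). With sample quality weights in limma, where wild-type spleen 1 weighed 24.8 and the other spleens 0.296 to 2.04, Prdm1 was called at 1.27 (FDR 0.0108) among 891 genes called higher of 12607, while over all alternatives the FDR ran from 0.0108 to 0.9996.

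Irf4 (chromosome 13, 30749226 to 30766976, plus strand) was at 88.1 FPKM in spleen 508, 71.9 FPKM in spleen 547, 20.6 FPKM in the unnumbered spleen and 9.68 FPKM in spleen 343, against 23.9, 11.1 and 24.6 FPKM in wild-type spleens 1, 4 and 5. High values were seen in spleens 508 and 547, and spleen 343 lay below the lowest wild-type spleen. The log2 fold change was 0.82 (SE 0.68, limma FDR 0.887). It was 0.37 without spleen 508, 0.47 without spleen 547 or wild-type spleen 4, 1.39 without spleen 343 and 0.019 with weights.

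Markers of T cells were also high in the unnumbered spleen. There, 8 of 10 T cell genes and 8 of 10 effector and regulatory T cell genes lay above every wild-type spleen, against 33.4% of all genes tested. Cd3e was at 79.2 FPKM, against 27.3 to 58.6 FPKM in wild-type spleens. The other 2 genes of the effector and regulatory list, Foxp3 and Il2ra, which mark regulatory T cells, lay below every wild-type spleen, at 0.69 and 0.82 FPKM in the unnumbered spleen against 2.04 to 4.78 and 2.72 to 3.25 FPKM in wild-type spleens. In spleens 508 and 547, where Prdm1 and Irf4 were highest, 10 and 9 of the 10 T cell genes lay below every wild-type spleen. The share of all genes below was 47% and 18.3%, and Cd3e was at 8.12 and 13 FPKM. Of the 10 effector and regulatory genes, 0 lay above and 4 below in spleen 508, against 14.1% and 47% of all genes. In spleen 547, 2 lay above and 5 below, against 45.8% and 18.3%. The 2 above in spleen 547 were Gzmb, a granzyme, at 62.4 FPKM against 3.29 to 29.6 FPKM in wild-type spleens, and the cytokine gene Il10, at 13.1 FPKM against 0.35 to 11 FPKM. The part of T cells in the level of either gene was not tested.

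Xbp1 (chromosome 11, 5520659 to 5525893, plus strand) was at 307 FPKM in spleen 508, 131 FPKM in spleen 547, 58.4 FPKM in the unnumbered spleen and 33.6 FPKM in spleen 343, against 53.7, 51 and 45.1 FPKM in wild-type spleens 1, 4 and 5. The wild-type spleens were close to each other, while the plckGAPDH spleens spanned a factor of 9.13. The mean was 132 ± 123 FPKM in plckGAPDH spleens (SD, n = 4) and 49.9 ± 4.4 FPKM in wild-type spleens (SD, n = 3). The log2 fold change was 0.91 (SE 0.64, limma FDR 0.832), with 0.35 without spleen 508, 1.40 without spleen 343 and 0.33 with weights. The files hold a level per gene, so the spliced and unspliced forms of Xbp1 mRNA were not told apart.

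Secretory pathway genes that Xbp1 is known to activate stood high in spleens 508 and 547 and also in the unnumbered spleen. Of 20 such genes, 19 lay above every wild-type spleen in spleen 508, against 14.1% of all genes tested, and 19 in spleen 547, against 45.8%. For the unnumbered spleen 16 did, against 33.4%, whereas in spleen 343 there were 2 above and 13 below, against 16.4% and 21.3%. In the lymph nodes 19 (animal 455) and 18 (animal 508) lay above, against 11.3% and 7.91% of all genes tested. With limma, all 20 had positive fold changes between the groups of spleens and none was called, with a median of 0.86 on the log2 scale against 0.02 for all genes, and 0.54 against 0.15 without spleen 508. The largest fold changes were those of Ssr4, a subunit of the translocon-associated complex, at 1.24 (SE 0.70, limma FDR 0.715), Herpud1, a factor of endoplasmic reticulum degradation, at 1.2 (FDR 0.577) and Pdia6, a disulfide isomerase, at 1.18 (FDR 0.635).

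Jchain had the widest spread of the 7 genes and lay below the wild-type range in spleen 547, where the other 6 lay above it. Its promoter is shown beside that of Xbp1, since the levels of these genes parted in spleen 547 and in the unnumbered spleen. The windows, from RefSeq on GRCm38.p6, hold 250 bases before and 50 bases after the start, 5′ to 3′ on the strand of the gene, with the bases from the start on in capitals. They lie at chr5:88527848-88528147 (minus strand) for Jchain and chr11:5520391-5520690 (plus strand) for Xbp1.
Jchain: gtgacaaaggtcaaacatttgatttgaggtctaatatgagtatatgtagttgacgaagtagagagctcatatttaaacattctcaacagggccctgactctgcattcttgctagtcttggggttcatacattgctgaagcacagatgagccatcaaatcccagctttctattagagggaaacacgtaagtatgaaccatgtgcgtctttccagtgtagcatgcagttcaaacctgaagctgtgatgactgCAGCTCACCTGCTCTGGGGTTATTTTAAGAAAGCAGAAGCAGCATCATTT
Xbp1: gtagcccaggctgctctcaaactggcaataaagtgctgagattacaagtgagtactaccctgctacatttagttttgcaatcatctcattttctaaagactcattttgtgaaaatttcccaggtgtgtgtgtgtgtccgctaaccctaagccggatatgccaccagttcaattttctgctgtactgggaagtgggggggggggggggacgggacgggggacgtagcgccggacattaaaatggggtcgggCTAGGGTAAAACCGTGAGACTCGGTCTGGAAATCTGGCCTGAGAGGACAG

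Promoter windows of 6 of the 7 genes were searched on both strands for 4 motifs of plasma cell regulators. These were GAAANNGAA (paired half-sites of the interferon-stimulated response element), GGAANNGAA (the composite element of ETS factors and IRF4), ATGCAAAT (the octamer) and TGACGTGG (a core of the unfolded protein response element). The first pair of motifs can overlap in sequence. None of the 4 was found in the 6 windows, while they occur in 8.56%, 8.24%, 1.74% and 0.676% of 32851 promoter windows of the same length. No match says only that these letters are not in these windows.

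Jchain (chromosome 5, 88519809 to 88527891, minus strand) was at 3472 FPKM in spleen 508, 37.4 FPKM in the unnumbered spleen, 18.8 FPKM in spleen 547 and 9.21 FPKM in spleen 343, against 135, 132 and 220 FPKM in wild-type spleens 1, 4 and 5. Spleen 508 thus lay above, and the other 3 plckGAPDH spleens below, every wild-type spleen. The mean of FPKM was 5.45 times higher in plckGAPDH spleens, at 884 ± 1725 FPKM (SD, n = 4) against 162 ± 50.1 FPKM (SD, n = 3), but the fold change on the log2 scale was negative, at -1.14 (SE 1.5, limma FDR 0.962). Without spleen 508 Jchain was called lower, with a log2 fold change of -3.0 and an SE of 0.53 (limma FDR 0.0205), among 143 genes called lower of 12470.

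The level of Jchain did not follow the level of the IgM and IgA genes whose products it joins. Jchain was at 496 FPKM per 100 FPKM of Ighm plus Igha in spleen 508, 0.819 in spleen 343, 0.461 in spleen 547 and 1.38 in the unnumbered one, against 3.89, 25.3 and 10.1 in wild-type spleens 1, 4 and 5. In lymph nodes 455 and 508 the ratio was 246 and 303. For this ratio, too, spleen 508 lay above and the other 3 plckGAPDH spleens below the wild-type range. Over the 7 spleens, the mean log2 ratio was -4.64 ± 4.68 in plckGAPDH spleens (SD, n = 4) and -3.32 ± 1.35 in wild-type spleens (SD, n = 3), a difference of -1.32 that did not pass an exact two-sided permutation test (p = 0.686; with 35 divisions of the spleens p cannot go below 0.0286). Without spleen 508 the difference was -3.64, and the exact permutation test gave p = 0.1, which is also the lowest it can give with 20 divisions. The place of spleen 508 depended on the denominator. Per 100 FPKM of all heavy-chain constant genes, Jchain was at 5.73 in spleen 508 and 5.76 in lymph node 508. Both lay within the wild-type range of 2.98 to 7.75, while lymph node 455 was at 14.3. The other 3 plckGAPDH spleens lay below it, at 0.434 to 1.14. With this denominator the log2 difference between the spleens was -2.03 (exact permutation test, p = 0.143).

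Libraries rich in Jchain held mostly antibody classes other than IgM and IgA. In spleen 508, Ighg2c made 98.0% of the FPKM of heavy-chain constant genes and Ighm plus Igha together 700 FPKM. In lymph node 508, Ighg2c made 96.7%, and in lymph node 455, Ighe, of class IgE, made 88.2%. In spleen 547 and the unnumbered spleen, where Jchain was at 18.8 and 37.4 FPKM, Ighm made 94.0% and 81.8%, with Ighm at 4064 and 2686 FPKM. In wild-type spleens Ighm made 73.5% (spleen 1), 13.8% (spleen 4) and 66.0% (spleen 5). No antibody constant gene was called between the groups of spleens.

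**Figure D3:**
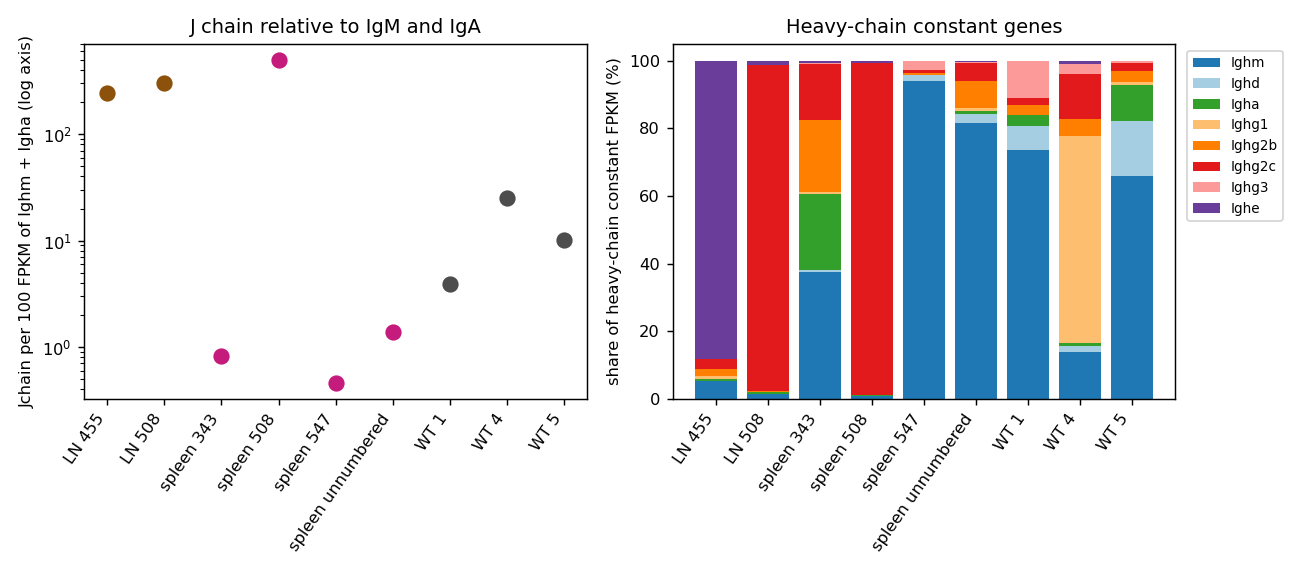
Left, Jchain per 100 FPKM of Ighm plus Igha in each library, on a log axis; right, the share of each heavy-chain constant gene in the FPKM of all of them. The 3 libraries above 200 on the left are those in which Ighg2c or Ighe takes over 80% on the right.

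Mzb1 was at 559 FPKM in spleen 508, 123 FPKM in spleen 547, 72.7 FPKM in the unnumbered spleen and 23.5 FPKM in spleen 343, against 86.6, 25.7 and 51.7 FPKM in wild-type spleens 1, 4 and 5. Spleens 508 and 547 lay above the wild-type range and spleen 343 below it. The mean was 195 ± 247 FPKM in plckGAPDH spleens (SD, n = 4) and 54.6 ± 30.6 FPKM in wild-type spleens (SD, n = 3). The log2 fold change was 1.09 (SE 0.85, limma FDR 0.876). It was 0.29 without spleen 508, 0.64 without wild-type spleen 4, 1.79 without spleen 343 and -0.17 with weights. Siglech, a defining marker of plasmacytoid dendritic cells, which also express Mzb1 and Jchain, was at 0.15 FPKM in spleen 508 and at 1.6 to 1.73 FPKM in the other plckGAPDH spleens, against 3.28 to 8.28 FPKM in wild-type spleens. Over the list of 8 genes of these cells, the sum ran from 44.7 to 130 FPKM in plckGAPDH spleens and from 51.2 to 82.4 FPKM in wild-type spleens, with Cd209d under 1 FPKM in every plckGAPDH spleen. The list was mixed: 1 of its 8 genes lay above every wild-type spleen and 5 below in spleen 508 (14.1% and 47% of all genes). In spleen 547, 3 lay above and 3 below (45.8% and 18.3%). Bst2, a surface protein also induced by interferon, was above in both, at 48.9 and 44 FPKM against 14.6 to 31.5 FPKM in wild-type spleens, and Tcf4, a transcription factor, and Pacsin1 were above in spleen 547, at 64.8 and 13.5 FPKM against at most 35.6 and 7.7 FPKM. The part of these cells in the level of Mzb1 was not tested.

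Sdc1 (chromosome 12, 8771323 to 8793715, plus strand) was at 38.7 FPKM in spleen 508, 9.81 FPKM in spleen 547, 2.57 FPKM in the unnumbered spleen and 0.45 FPKM in spleen 343, against 4.41, 2.02 and 4.56 FPKM in wild-type spleens 1, 4 and 5. The plckGAPDH spleens spanned a factor of 86.0, and spleens 508 and 547 lay above the wild-type range. The value of spleen 343 rests on few fragments, about 11 per kilobase of transcript at its estimated depth. The log2 fold change was 0.61 (SE 0.86, limma FDR 0.968), and it was -0.23 without spleen 508, 0.39 without spleen 547, 0.32 without wild-type spleen 4, 1.36 without spleen 343 and 0.93 without the unnumbered spleen. Of 6 epithelial genes, 4 were under 1 FPKM in every plckGAPDH spleen and 5 in every wild-type spleen, with summed levels of 0.92 to 6.26 FPKM and 2.45 to 3.53 FPKM.

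Slamf7 (chromosome 1, 171632403 to 171653035, minus strand) was at 45.4 FPKM in spleen 547, 43.2 FPKM in spleen 508, 19.9 FPKM in the unnumbered spleen and 6.16 FPKM in spleen 343, against 13.6, 20.4 and 19.6 FPKM in wild-type spleens 1, 4 and 5. Spleens 547 and 508 stood at similar levels, unlike for Sdc1 or Mzb1, where spleen 508 was well above. The log2 fold change was 0.34 (SE 0.60, limma FDR 0.976), with 0.037 without spleen 508, 0.014 without spleen 547, 0.16 without wild-type spleen 1 and 0.91 without spleen 343. For natural killer cells, which also carry Slamf7, the sum over 8 genes was 4.84 to 63.1 FPKM in plckGAPDH spleens and 84.4 to 232 FPKM in wild-type spleens. Of these 8 genes 3 were called lower, against 1.23% of all genes tested. They were Gzma (a granzyme), Klrd1 (a receptor subunit) and Klre1 (a receptor), with log2 fold changes of -3.04, -2.8 and -2.2. Their limma FDR values of 0.0404, 0.0486 and 0.0318 lay close to the threshold of 0.05. Over all genes, the 181 called fell to 110, 90 and 72 without wild-type spleens 1, 4 and 5. The 8 macrophage genes summed to 27.6 to 132 FPKM in plckGAPDH spleens and 55.2 to 269 FPKM in wild-type spleens, and none was called. The part of natural killer cells or macrophages in the level of Slamf7 was not tested.

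The profiles of the 7 genes over the 9 libraries were compared by the root mean square difference of mean-centred log2(FPKM + 1). Xbp1 and Irf4 were the closest pair, at 0.42. The closest member to Sdc1 was Xbp1, at 0.57, and to Slamf7 it was Irf4, at 0.55. Jchain was the most distant, at 1.79 from Mzb1 and up to 2.74 from Prdm1, while pairs without Jchain lay between 0.42 and 1.34. These are descriptions over libraries of which 2 share an animal, and the distance grows with the range of a gene.

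**Figure D4:**
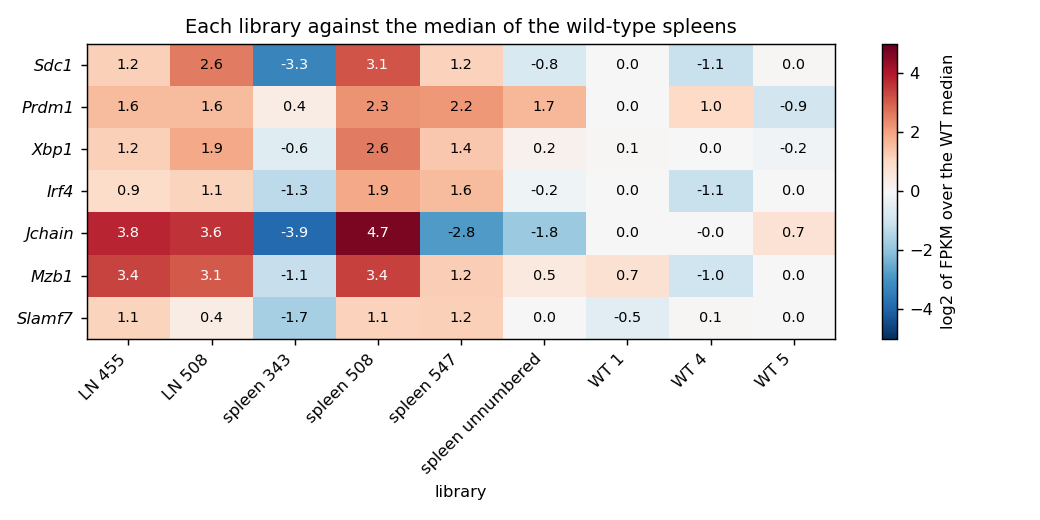
Log2 of the FPKM of each gene over the median of the 3 wild-type spleens, per library. Jchain is at 4.7 in spleen 508 and at -3.9 in spleen 343, and it is negative in spleen 547 where the other 6 genes are positive.

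Among the 13682 genes at 1 FPKM or more in at least 2 libraries, those nearest to each member were taken by the same measure. For Xbp1 they were Fkbp2 at 0.22, which encodes a prolyl isomerase of the endoplasmic reticulum, Slc3a2 at 0.22, the heavy chain of amino acid transporters, and Bhlha15 at 0.24, a transcription factor of secretory cells also called Mist1. The same genes were nearest to Sdc1, at 0.47 (Slc3a2), 0.53 (Bhlha15) and 0.54 (Fkbp2). Bhlha15 was at 9.68 FPKM in spleen 508, 3.06 FPKM in spleen 547, 0.43 FPKM in the unnumbered spleen and 0.23 FPKM in spleen 343, against 0.45 to 1.05 FPKM in wild-type spleens. For Irf4 they were Selk at 0.18, Abcb6 at 0.24 and Pck2 at 0.27, and for Prdm1 Pawr at 0.31, Abcb1b at 0.35 and Eaf2 at 0.35. For Mzb1 they were Derl3 at 0.58, a factor of endoplasmic reticulum degradation, Sdf2l1 at 0.59 and Prdx4 at 0.65. For Slamf7 they were Bst2, Gm13502 and Enpp1 at 0.34 to 0.35.

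For Jchain they were Slpi at 1.16, Fkbp11 at 1.35 and Csn3 at 1.36, where the median distance of Jchain to all genes was 3.13, against 1.04 to 1.93 for the other 6 members. Slpi, a secreted inhibitor of leukocyte proteases, was at 1932 FPKM in spleen 508 and at 4.08 to 32 FPKM in the other plckGAPDH spleens, against 11.9 to 80.3 FPKM in wild-type spleens, and at 2146 and 1109 FPKM in lymph nodes 455 and 508. Csn3, which encodes kappa-casein, was at 37.7 FPKM in spleen 508 and at 44.4 and 18.1 FPKM in lymph nodes 455 and 508, against 0.20 FPKM or less in each of the other 6 libraries.

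Other genes linked to plasma cells were listed as 22, of which 20 were tested between the spleens. With limma 0 was called, 15 had positive fold changes, and the median was 0.40. Without spleen 508 it was 0.15, the same as the 0.15 of all genes. Derl3 was at 1.86 (SE 0.82, limma FDR 0.530), Txndc5, a disulfide isomerase, at 1.71 (FDR 0.429) and Creld2, an endoplasmic reticulum stress protein, at 1.66 (FDR 0.490). Without spleen 343, 2 of the 20 were called higher, as were 81 of all 12263 genes tested. By library, 17 of the 22 lay above every wild-type spleen in spleen 508, against 14.1% of all genes tested, and 13 in spleen 547, against 45.8%. In the unnumbered spleen 6 lay above, against 33.4%. In spleen 343, 1 lay above and 11 below, against 16.4% and 21.3%.

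The B cell programme that plasma cells switch off was given by 20 genes, 19 of them tested. Of these 2 were called lower with limma, against 1.23% of all genes tested. Cr2, the complement receptor of mature B cells, fell by 5.44 (SE 0.75, FDR 0.00169). Fcer2a, the low-affinity IgE receptor, fell by 4.05 (SE 0.73, FDR 0.0136). In spleen 343 Cr2 was at 0.69 FPKM and Fcer2a at 1.07 FPKM, and in spleen 508 at 0.14 and 9.83 FPKM. Wild-type spleens held 11 to 155 FPKM of Cr2 and 17.5 to 107 FPKM of Fcer2a. The median of the list was -0.39, against 0.02 for all genes. Without wild-type spleen 5 the median was 0.025, against 0.15 for all genes, with 1 gene called lower, as were 67 of all 12250. Without wild-type spleen 4 it was -0.97, against -0.16 for all genes, with 3 called lower, as were 83 of all 12264. Without both, the median was -0.85, against -0.079 for all genes. In spleen 508, 10 of the 20 genes lay below every wild-type spleen (47% of all genes tested) and 2 above (14.1%). In spleen 547, 6 lay below (18.3%) and 3 above (45.8%). For the unnumbered spleen these were 5 below (10.5%) and 3 above (33.4%). In spleen 343, where the identity genes were lowest, 7 lay below (21.3%) and 6 above (16.4%).

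The remaining lists are given as counts between the spleens. Of all genes tested, 1.44% were called and the median was 0.02 on the log2 scale. None of the 12 antibody constant genes was called, with a median of -0.18; Ighd was at -3.34, Ighg1 at -3.0 and Ighe at 2.63. None of the 10 T cell genes was called, all negative, with a median of -0.74, and none of the 10 effector and regulatory T cell genes, with a median of 0.20. The 8 natural killer genes had a median of -2.02. None of the 7 plasmacytoid dendritic cell genes tested was called, with a median of -0.40, and the 8 macrophage genes had a median of -0.50. Of 6 epithelial genes only Epcam was tested, at -0.23. Of 10 marginal zone and B-1 cell genes, 1 fell (Cr2, also counted above), with a median of -0.65. The part of these cells in the levels of the 7 genes was not tested.

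**Figure D5:**
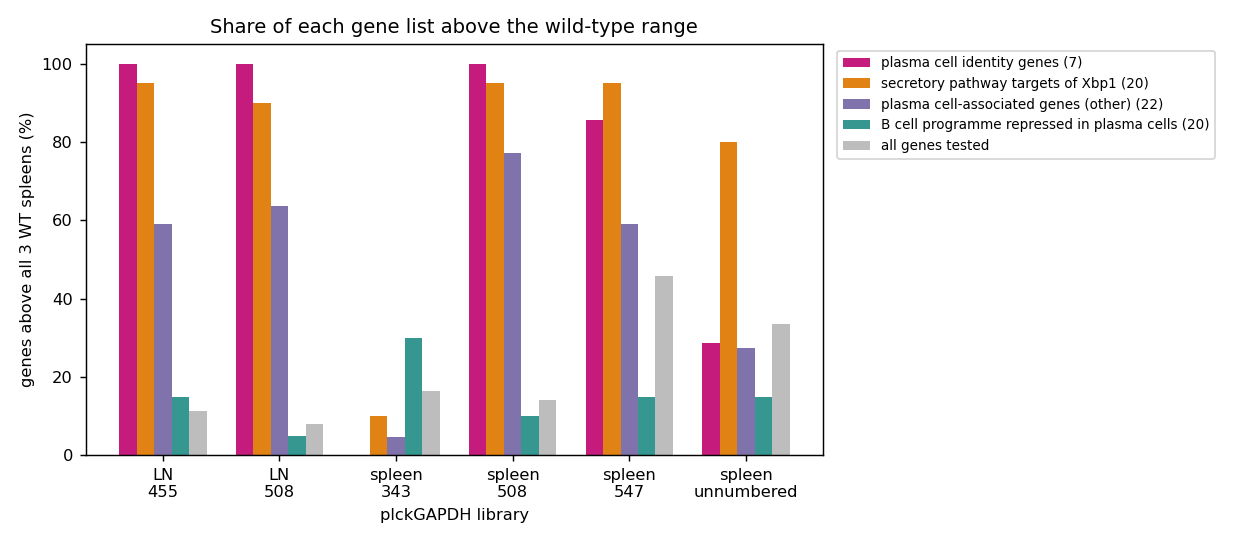
Share of the genes of 4 lists (members in brackets, untested ones included) and of all 12607 genes tested that lay above every wild-type spleen, in each plckGAPDH library. Of the identity genes, all 7 lie above in both lymph nodes and spleen 508 and none in spleen 343. For the nodes, organ and genotype cannot be told apart, as there is no wild-type lymph node.

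In the lymph nodes, the 7 genes were at high and, for most, similar levels in both animals. Jchain was at 1886 FPKM in lymph node 455 and 1661 FPKM in lymph node 508, Mzb1 at 542 and 432 FPKM, Xbp1 at 117 and 188 FPKM, and Irf4 at 44.8 and 51.5 FPKM. Prdm1 was at 8.17 and 8.10 FPKM, Slamf7 at 42.5 and 25.6 FPKM, and Sdc1, which differed most between the nodes, at 10.2 and 26.9 FPKM. For each gene both nodes lay within the range of the 4 plckGAPDH spleens.

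Against plckGAPDH spleens, 0 of the 7 genes was called in the lymph nodes with limma, fitted to the 9 libraries as 3 groups, against 0.0146% of 13682 genes (0.00731% in each direction). At an unadjusted p under 0.05, 2 of the 7 passed (Jchain and Mzb1), against 11.3% of all genes. The groups overlapped for all 7, and 30.5% of all genes did not overlap (0.49% higher and 30% lower in the nodes). The median of all genes was -0.59 on the log2 scale, and that of the 7 was 0.64. Jchain was at 4.62 (SE 1.75, limma FDR 0.359), with a mean of 1774 ± 159 FPKM in lymph nodes (SD, n = 2) and 884 ± 1725 FPKM in plckGAPDH spleens (SD, n = 4). Mzb1 was at 2.2 (SE 0.97, limma FDR 0.359) and Sdc1 at 1.36 (SE 1.02, limma FDR 0.399). Xbp1, Slamf7 and Irf4 were at 0.64, 0.53 and 0.49, and Prdm1 at -0.05 (SE 0.52, limma FDR 0.947). Without plckGAPDH spleen 508, Jchain was called higher in the nodes at 6.48 (SE 0.58, limma FDR 0.000977), among 21 genes called higher of 13578, with a median of all genes of -0.72. This comparison shares the plckGAPDH spleens with the comparison of genotypes.

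In animal 508, the lymph node was below the spleen for all 7 genes, as it was for 87.9% of the 12607 genes. The node held 47.8% of the spleen's FPKM for Jchain and 58.4% to 77.3% for the other 6. Of the other plasma cell genes, none was called between nodes and spleens, 16 of 22 had positive fold changes, and the median was 0.53. Fkbp11, a prolyl isomerase of secretory cells, was at 2.39 (SE 1.05), Cd38, an ectoenzyme, at -2.32 (SE 0.82) and Derl3 at 1.69 (SE 0.94), each with a limma FDR of 0.359. Of 20 secretory targets of Xbp1, 17 were positive and none called, with a median of 0.66 and Sdf2l1 at 1.31. Of 20 B cell programme genes, 16 were negative, 4 positive and none called, with a median of -0.93 against -0.59 for all genes tested. The largest fold change in size was positive, that of Fcer2a, at 2.06 (SE 0.84, limma FDR 0.359). Its mean was 10.2 FPKM in the nodes and 2.98 FPKM in plckGAPDH spleens. Pax5 was at -1.65 (SE 0.79, limma FDR 0.359). Pax5, the factor that maintains B cell identity, was at 9.51 and 5.86 FPKM in lymph nodes 455 and 508, against 8.62 to 69.9 FPKM in plckGAPDH spleens and 10.3 to 59.3 FPKM in wild-type spleens.

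Markers of other cells were also set side by side for the nodes and plckGAPDH spleens, and none was called. The median of all genes tested was -0.59. It was -0.80 for T cell genes (10 of 10 negative) and -0.88 for marginal zone and B-1 cell genes, both below that of all genes. The median was -0.54 for effector and regulatory T cell genes, -0.35 for natural killer genes, -0.49 for plasmacytoid dendritic cell genes and -0.56 for macrophage genes. These lay at or above that of all genes. That of antibody constant genes was 0.35, with Ighe at 6.39 (SE 1.89, limma FDR 0.359), and the single epithelial gene tested was at 0.23. T cell genes summed to 103 and 252 FPKM in the nodes, against 117 to 1151 FPKM in plckGAPDH spleens, and Ncr1, Klrb1c, Klre1 and Klra8 of natural killer cells were under 1 FPKM in both nodes.

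By group mean, 6 of the genes stood in the order lymph node, plckGAPDH spleen and wild-type spleen from high to low. The means of nodes and plckGAPDH spleens were close for Irf4 (48.1 and 47.6 FPKM), Xbp1 (152 and 132 FPKM) and Slamf7 (34.0 and 28.7 FPKM). For Sdc1 the log2 fold change between the spleens turned to -0.23 without spleen 508. Prdm1 stood highest in plckGAPDH spleens. For Jchain the place of plckGAPDH spleens above wild-type spleens rests on spleen 508, since the other 3 lay below every wild-type spleen and the log2 fold change was -1.14. Lymph nodes and wild-type spleens were not tested against each other, and the other neighbouring groups did not differ past the threshold with limma for any of the 7. Among levels, Jchain was the most abundant of the 7 in wild-type spleens, at 162 FPKM on average, and Prdm1 the least abundant, at 3.19 FPKM.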

How the data were processed

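Stranded total RNA libraries of 500 ng input were read as pairs of 75 bases, per the labels' protocols. The authors deposited a single table of FPKM per gene with 2 decimals. The tools named are RSEM, Bowtie2 2.2.6, STAR 2.4.0a and featureCounts (Subread 1.5.0-p3), with the build mm10, per the submitters' processing notes. Their roles and the annotation are unstated. As FPKM is scaled to all counted fragments, abundant antibody RNA lowers the other genes of a library.

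Columns were matched to samples by title. The column of the unnumbered spleen matched only its group, and another title has no column of its own. The members and gene lists were chosen with earlier results of these data known. Genes needed 1 FPKM in 3 spleens, or in 2 of all 9 samples for the lymph nodes. The fit used limma 3.58.1 (R 4.3.3), with a trend in the prior variance, on log2(FPKM + 1), and p-values were adjusted over all genes tested. No count model was fitted. The script was tested on simulated data. Depth was estimated from low FPKM of genes with 1 transcript, of which 80.6% to 85.3% lay at whole fragments within rounding and a tolerance of 0.02 fragments, against 18.8% to 21.0% by chance. Identical values made at most 0.257% in any of the 36 library pairs. Of the table's 46517 genes, 46005 matched the reference by identifier, and Tent5c was found as Fam46c. Gene positions are from GENCODE M21 on GRCm38, the assembly of mm10. Named list genes are those called, or the largest fold changes up to 3 in a list, and 1 such gene is not reported here; Pax5, Bhlha15, Slpi, Csn3, Cd3e and Siglech values by library were chosen after they were seen. The labels used here name no sequencing batch. Alternatives were a pseudocount of 0.1 FPKM, no filter, 2 scalings, sample weights, no trend, the fit of all 9 samples and leaving out libraries.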

Additional observations from a re-analysis of the deposited data

Results flagged for a closer look

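The values of the 4 plckGAPDH spleens were checked for a sample far from the others in 8 measures, the FPKM of the 7 genes and the ratio of Jchain to Ighm plus Igha. With groups of 4 and normally distributed values, chance marks about 1 in 20. The values were taken unlogged and are skewed, so this rate may not hold here. On log2(FPKM + 1), where the check was not run, Jchain was at 11.8, 5.26, 4.30 and 3.35 in the 4 spleens. Jchain was marked in spleen 508, where it was at 3472.35 FPKM: its gap to the next spleen made 0.992 of the range of the group, past the 95% limit of Dixon's test for 4 samples. The ratio was marked in the same spleen, at 496 FPKM of Jchain per 100 FPKM of Ighm plus Igha, with a gap of 0.998 of the range. Both measures share the Jchain value. Mzb1 in spleen 508 came close, with a gap of 0.815.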

How the results depend on the processing

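No paired analysis was possible because the groups share a single animal number, 508. Of 105 member fold changes between the spleens under alternatives, 100 kept direction and side of the threshold, 2 became called and 3 reversed; of 112 between nodes and spleens, 103 did, 2 became called and 7 reversed. The 181 genes called between the spleens were 74 without a filter, 1863 with sample quality weights, 12 without wild-type spleens 4 and 5 (an alternative chosen after seeing the data) and 72 to 265 with each spleen left out: 72, 90 and 110 without wild-type spleens 5, 4 and 1. Of called genes 14.4% were higher, against 1.35% without a filter and 47.8% with weights. Of the identity genes, 1 was called with weights (Prdm1) and 0 to 1 with each spleen left out (Jchain without 508). With weights Mzb1 was at -0.17 and Sdc1 at -0.33, and with each spleen left out Sdc1 ran from -0.23 (without 508) to 1.36. Scaling without immunoglobulin and mitochondrial genes moved the median of all genes to -0.16. Between nodes and spleens, the 2 called genes were 5 with a pseudocount of 0.1, 5 without a filter, 1 with median-of-ratios scaling (which moved the median of all genes to -0.01), 7 with weights, 38 without both libraries of animal 508 (also chosen after seeing the data) and 0 (without node 455) to 28 (without node 508) with each library left out. Without both libraries of animal 508, 1 identity gene was called, Jchain at 6.58 (limma FDR 0.00756), and 0 to 1 with each library left out. Prdm1 turned to 0.65 with median-of-ratios scaling, 0.016 with weights and 0.14 without both libraries of 508; with each library left out it ran from -0.40 to 0.14, Irf4 from -0.084 to 0.94 and Slamf7 from -0.043 to 0.885, both negative without spleen 343. The log2 ratio of Jchain to Ighm plus Igha, -1.32, ran from -3.64 to -0.28 with each spleen left out, and the difference of linear means was 112 FPKM per 100 FPKM in the other direction. With all heavy-chain constant genes as the denominator the log2 difference was -2.03. Except where named, the cause was not tested. Depth limits the low value of Sdc1 in spleen 343, and intervals were not given since the fragments are estimates.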

Other observations

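Tnfrsf17, which encodes BCMA, the survival receptor of plasma cells, did not pass the filter between the spleens and was chosen after its values were seen. It was at 9.71 FPKM in spleen 547, 2.75 FPKM in spleen 508, 0.25 FPKM in the unnumbered spleen and 0.12 FPKM in spleen 343, against 0.34 to 0.80 FPKM in wild-type spleens, and at 5.49 and 2.51 FPKM in lymph nodes 455 and 508. Spleen 547, with 18.8 FPKM of Jchain, thus held the highest Tnfrsf17 of the 9 libraries. Fkbp11 parted in the same way as Jchain, at 1.13 FPKM in spleen 547 and 48.8 FPKM in spleen 508, against 2.34 to 3.44 FPKM in wild-type spleens. Fam46c, a poly(A) polymerase gene of plasma cells and red cell precursors also called Tent5c, was at 63.8 FPKM in wild-type spleen 5, the library rich in globin RNA, against 11.5 and 12.6 FPKM in wild-type spleens 1 and 4.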
